A study of Mus musculus with 7 samples.

Results

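The comparison described here is TGFβ1 against vehicle in mouse articular chondrocytes, read across all genes with enough counts to be tested. These were 13367 of the 52459 gene names in the deposited count table, and 4 of its 7 libraries carry the comparison. Primary chondrocytes from the femoral head were plated in serum-containing medium and treated for 24 h with vehicle (replicates 1 and 2) or with TGFβ1 at 5 ng/ml (replicates 1 and 3). The other 3 libraries, from cells given BMP2 at 100 ng/ml for 24 h, entered the fits only to share the estimate of the spread. The labels give no genotype, strain, sex or age, and do not say whether replicates came from separate animals or cultures, so p-values here reflect only how these libraries scatter, and that scatter may be technical. The vehicle libraries held 6885056 and 7387051 counts and the TGFβ1 libraries 18047765 and 16271793.

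TGFβ1 is secreted in a latent complex that latent TGFβ binding proteins tether to the matrix, and proprotein convertases and integrins take part in its processing and release. The active ligand binds TGFBR2 and TGFBR1, which phosphorylate SMAD2 and SMAD3; with SMAD4 these enter the nucleus and bind DNA, where the short sequence CAGAC is their known contact. In articular cartilage the pathway is known for holding chondrocytes back from hypertrophy and for sustaining the surface layer that makes lubricin, while SMAD1, SMAD5 and SMAD9 carry the signals of BMPs.

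Fold changes varied with gene length, and every tested gene below is introduced with its gene length in the deposited table, in nucleotides (nt). The table's length matched the joined exons of the gene in the reference annotation for 93.6% of the names found there. The median log2 fold change was 2.67 over 467 tested genes of up to 750 nt and −0.39 over 2886 genes longer than 7000 nt, against −0.02 over all tested genes. Taken per library against the mean of the vehicle libraries, genes of up to 1000 nt stood above genes over 7000 nt by 3.04 and 2.80 on the log2 scale in the TGFβ1 libraries, and by 0.00 to 0.16 in the 3 BMP2 libraries. The treatment and this difference between libraries cannot be told apart. Each gene was therefore tested 3 times with edgeR: in a plain fit, with an offset for the deposited gene length, and with an offset for the length and GC content of its principal transcript. A gene is said here to have risen or fallen only if its Benjamini-Hochberg adjusted p was under 0.05 with the same sign in all 3 fits.

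**Figure D1:**
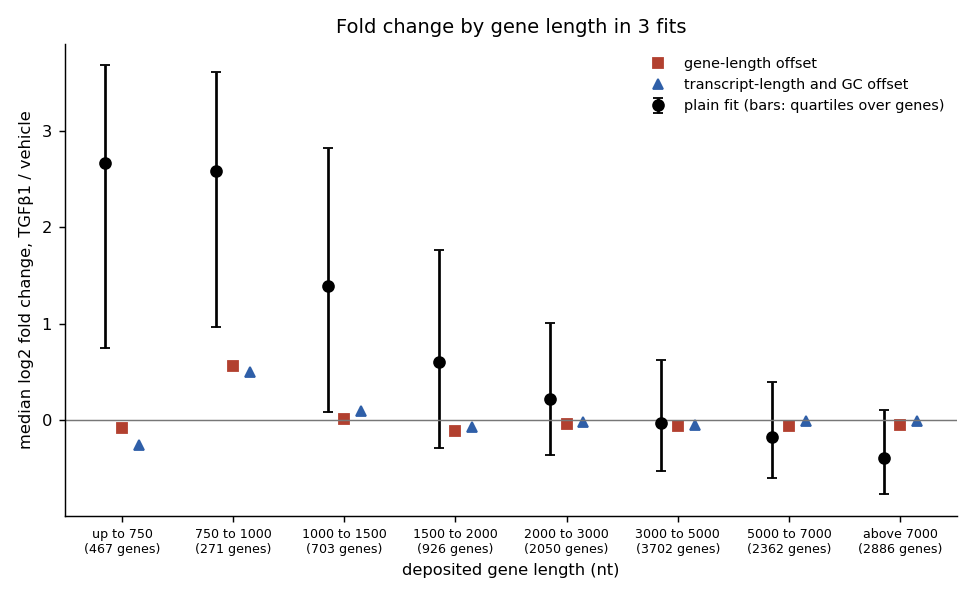
Median log2 fold change of TGFβ1 against vehicle (y axis) in 8 classes of deposited gene length (x axis) in the 3 fits; bars on the plain fit span the quartiles over genes. The plain medians run from 2.67 in the shortest genes to −0.39 in the longest, and those with the gene-length offset lie between −0.11 and 0.56.

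By that rule 2721 genes rose (20.4% of those tested) and 2143 fell (16%), beside 4067 (30.4%) and 3450 (25.8%) in the plain fit alone. The counts for gene lists below are to be read beside the 20.4% and 16%. Restricted to changes of more than 2-fold in the plain fit (edgeR's test against a minimum fold, adjusted p under 0.05), 1559 genes rose (11.7%) and 513 fell (3.84%). Among 10735 tested genes with a principal transcript over 1500 nt, 2004 rose and 1948 fell. Between any 2 of the 3 fits 175 genes were called in opposite directions, and these are counted neither as risen nor as fallen. The CPM ranges of the vehicle and TGFβ1 libraries did not overlap for 10704 tested genes (80.1%), so separate groups were the usual outcome. Each fold change below is a log2 value of the plain fit, with SE for its standard error. Levels are TMM-scaled CPM (counts divided by library size), which compare libraries and not genes of different length.

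Chondrocyte markers were high in both groups, and 6 of the 8 tested fell with TGFβ1. Col2a1 (6001 nt), the main cartilage collagen gene, stood at 35100 and 35770 CPM with vehicle and 26900 and 32140 CPM with TGFβ1, and its fold change of −0.26 did not pass. Markers of other cells ranged from absent to plainly counted. Cd3e, Calcr, Cdh5 and Hbb-bs had 0 counts in all 7 libraries, and Ptprc had between 0 and 4 in the vehicle and TGFβ1 libraries. Counts in this paragraph are not scaled, and the TGFβ1 libraries held more of them. Of the leukocyte markers, Cd68 (1257 nt) had 15 and 19 counts with vehicle and 112 and 60 with TGFβ1. Lyz2 (1316 nt) had 103 and 187 against 259 and 168. Neither was called in all 3 fits, and the plain values were 1.58 for Cd68 and −0.19 for Lyz2. Of 5 leukocyte markers tested 0 rose and 1 fell, a call lost when any vehicle or TGFβ1 library was left out. The osteoclast marker Ctsk (1512 nt) had 639 and 767 counts with vehicle and 1627 and 1532 with TGFβ1, at a fold change of 0.42 in the plain fit and −0.55 with the gene-length offset, and was not called in all 3 fits. Of the osteoblast markers, Ibsp (2068 nt) had 1250 and 1517 counts against 2250 and 1600 and was not called in all 3 fits (−0.28), Bglap (618 nt) had 202 and 215 against 364 and 409 and was not called in all 3 fits either (0.14, and −3.18 with the transcript offset), and Sp7 (2906 nt) fell by 0.80. The endothelial Pecam1 (6228 nt) went from 0 and 0 counts to 4 and 6, and the neuronal Tubb3 (1868 nt) from 9 and 4 to 44 and 36, and neither passed in all 3 fits without vehicle replicate 2 (5.04 and 1.30). None of the 4 erythroid or 4 skeletal muscle markers passed the count filter. Of 4 adipocyte markers 1 was tested: Fabp4 (4489 nt) rose from 4.67 and 8.12 to 56.4 and 48.9 CPM, by 3.03 and by 1.25 with the transcript offset, while Adipoq had 0 counts with vehicle and 1 in each TGFβ1 library. Acta2 (1781 nt) and Cspg4 (11931 nt), of the 5 pericyte and smooth muscle markers, rose by 1.29 (0.64 with the gene-length offset) and 0.75, and Myh11 had at most 1 count in any vehicle or TGFβ1 library. Without vehicle replicate 1 neither Fabp4 (2.65) nor Acta2 (1.02) passed in all 3 fits. The part of these markers in the results below was not tested. In bulk RNA, fewer cells of a type and less RNA per cell cannot be told apart.

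Most SMAD2/3 target genes rose. Of 26 tested, 20 rose and 2 fell, with a median log2 fold change of 1.5 in the plain fit and 1.71 with the transcript offset, against −0.02 over all tested genes in both. Il11 (2012 nt), the cytokine interleukin-11, held 1 and 4 counts with vehicle and 1347 and 1259 with TGFβ1, which is 0.134 and 0.477 against 98.9 and 95.9 CPM; the libraries did not overlap and the ratio was 309 (exact 95% interval for counting error, 132 to 953). Pmepa1 (4913 nt), which retains SMAD2 and SMAD3 away from the receptor, stood at 22.4 and 22.6 CPM with vehicle and at 702 and 769 CPM with TGFβ1. Adam12 (10573 nt), a membrane metalloprotease, went from 3.6 and 3.46 to 111 and 121 CPM, a fold change of 5.04 (SE 0.17, adjusted p = 1.07e-08). In all 3 genes the lowest TGFβ1 library lay above the highest vehicle library; the same held in one direction or the other for 80.1% of all tested genes. Inhba (6390 nt), which encodes the activin A subunit, rose from 9.07 and 8.24 to 158 and 148 CPM, and the NADPH oxidase gene Nox4 (8471 nt) from 0.934 and 0.716 to 11.2 and 16.8 CPM. Skil (9694 nt), a SMAD corepressor, rose by 1.49. The 2 that fell were Snai2 (2031 nt), a transcription factor of mesenchymal cells, at a fold change of −1.85, and the cyclin-dependent kinase inhibitor gene Cdkn2b (1393 nt), at −1.33 (−2.16 with the transcript offset). Tgfbi (3771 nt), at 0.25, was not called in any fit.

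The 250 bases before the RefSeq starts of 3 genes with large rises are shown because they let the SMAD contact be seen in place; they were chosen because they hold it. The window of Inhba, a SMAD2/3 target that rose as well, held neither the contact nor the AP-1 motif, and nor did that of Frzb, a gene that fell. Capitals mark CAGAC in either orientation (read as GTCTG when it lies on the opposite strand) and the AP-1 motif TGANTCA. The build is GRCm38.p6 (mm10), and each line reads 5′ to 3′ on the strand of the gene: Il11 on the minus strand at chr7:4778142-4778391, Ltbp2 on the minus strand at chr12:84876492-84876741 and Adamtsl2 on the plus strand at chr2:27079129-27079378.
Il11: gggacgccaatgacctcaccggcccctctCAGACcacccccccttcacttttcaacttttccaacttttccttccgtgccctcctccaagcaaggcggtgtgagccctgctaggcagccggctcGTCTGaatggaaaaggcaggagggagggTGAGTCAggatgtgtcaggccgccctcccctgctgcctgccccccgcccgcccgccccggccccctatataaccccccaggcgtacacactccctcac
Ltbp2: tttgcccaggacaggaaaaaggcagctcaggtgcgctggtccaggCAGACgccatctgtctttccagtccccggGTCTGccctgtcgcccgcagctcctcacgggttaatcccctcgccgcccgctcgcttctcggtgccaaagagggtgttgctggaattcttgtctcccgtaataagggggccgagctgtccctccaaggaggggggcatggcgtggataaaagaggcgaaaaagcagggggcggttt
Adamtsl2: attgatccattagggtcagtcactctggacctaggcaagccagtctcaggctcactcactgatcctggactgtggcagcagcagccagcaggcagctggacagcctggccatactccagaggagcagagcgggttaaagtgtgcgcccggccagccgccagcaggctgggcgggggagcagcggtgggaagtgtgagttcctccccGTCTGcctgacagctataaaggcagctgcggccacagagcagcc
The Il11 window held the SMAD contact once in each orientation and the AP-1 motif once; RefSeq gives Il11 a further start upstream, not shown, whose window held 2 forward copies of the contact. The Ltbp2 window held the contact once in each orientation, and the Adamtsl2 window once, on the opposite strand. CAGAC on either strand occurred in 42.2% of all 32851 such windows (27025 genes), in 40.5% of those of tested genes, in 43.3% of those of genes that rose and in 38.5% of those of genes that fell. The shares for TGANTCA were 6.75%, 4.33%, 5.89% and 3.7% in the same order. These are matches of letters, given as a description; binding was not measured.

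The list of TGFβ ligands, latency and activation, which holds the whole Ltbp family, was divided. Of 18 tested genes 10 rose and 5 fell (median 0.61, and 0.74 with the transcript offset). A role of each member in storing or freeing TGFβ was not tested. Ltbp2 (8184 nt) stood at 8.41 and 8.95 CPM with vehicle and 160 and 185 CPM with TGFβ1, a rise of 4.31 (SE 0.16). Ltbp1 (10480 nt), whose product binds latent TGFβ1 in the matrix, rose from 39.1 and 36.6 to 192 and 209 CPM, and Ltbp3 (5190 nt) from 86.1 and 89.4 to 172 and 178 CPM. The remaining member of that family, Ltbp4 (6463 nt), fell from 6.14 and 6.33 to 2.13 and 1.91 CPM. Secreted convertases were split likewise. Pcsk5 (9346 nt) rose from 3.74 and 3.58 to 68.3 and 76.6 CPM (4.30, SE 0.18, adjusted p = 1.36e-08), while Pcsk6 (5190 nt), a related convertase, fell from 324 and 296 to 97.1 and 104 CPM (−1.63, SE 0.13). The ligands differed too. Tgfb1 (5042 nt) rose by 0.70 (SE 0.14), from 17.4 and 15.9 to 26.3 and 27.8 CPM, which did not pass in all 3 fits without vehicle replicate 2 (0.64). Tgfb2 (5791 nt) fell from 146 and 146 to 57.5 and 56.5 CPM, and Tgfb3 (3383 nt), with 12.4% of its exon bases in another gene, from 26.2 and 23.5 to 6.31 and 8.84 CPM. The integrin subunits Itgb3 (5901 nt) and Itgb5 (3362 nt), whose integrins can release TGFβ from latency, rose by 2.73 and 1.02.

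Of 12 tested receptors and co-receptors 1 rose and 3 fell, beside 20.4% and 16% of all tested genes. Eng (4048 nt) rose by 0.70. Tgfbr1 (6534 nt), Tgfbr3 (6545 nt) and Rgma (5544 nt) fell (log2 −0.96, −0.90 and −0.52, and −0.45, −0.48 and −0.55 with the transcript offset). None of these 4 calls stood without vehicle replicate 1, where the plain values were 0.65, −1.0, −0.91 and −0.49. Tgfbr1 and Tgfbr3 also failed without TGFβ1 replicate 1 (−0.81 and −0.71), Eng and Tgfbr1 without vehicle replicate 2 (0.69 and −0.97), and Rgma without TGFβ1 replicate 3 (−0.52). Tgfbr2 (8187 nt), at 110 and 110 CPM with vehicle and 79.9 and 103 CPM with TGFβ1, was not called. Of the 8 SMAD genes only the inhibitory Smad7 (4521 nt) rose, by 0.70. Smad4 (3712 nt), the shared partner, Smad1 (6262 nt) and the inhibitory Smad6 (3205 nt) fell (log2 −0.68, −0.78 and −0.88), and Smad9 (5368 nt) fell from 26.4 and 19.5 to 3.52 and 3.73 CPM (−2.65, SE 0.19). Of 17 genes that restrain SMAD signalling 6 rose and 4 fell. Besides Pmepa1, Skil and Smad7, Ldlrad4 (2493 nt) rose by 2.71, although 52.1% of its exon bases lie in another gene, and the ubiquitin ligase gene Smurf2 (6162 nt) rose by 0.91. The pseudoreceptor gene Bambi (5040 nt) and the ubiquitin ligase gene Nedd4l (14382 nt) fell (log2 −1.83 and −1.17).

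Of 19 tested SMAD1/5 targets, 10 fell and 2 rose, with a median of −0.71 and −0.88 with the transcript offset. Hey1 (3265 nt), a repressor that Notch and BMP both induce, fell from 6.41 and 7.4 to 0.661 and 0.686 CPM, and the homeobox genes Dlx5 (2263 nt) and Msx1 (3097 nt) fell (log2 −2.58 and −1.46). The BMP antagonist gene Nog (1695 nt) fell from 9.74 and 7.64 to 2.35 and 3.73 CPM. With the transcript offset Dlx5 was at −3.34, and with the gene-length offset Nog was at −2.23, beside a plain −1.51. Besides Smad7, Hes1 (2037 nt) rose by 2.27, a call lost when any of vehicle replicate 1 (1.96), vehicle replicate 2 (2.62) or TGFβ1 replicate 3 (2.14) was left out. Id2 (2438 nt), an inhibitor of DNA binding, stood at 146 and 142 CPM with vehicle and 271 and 182 CPM with TGFβ1, and was not called in all 3 fits.

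**Figure D2:**
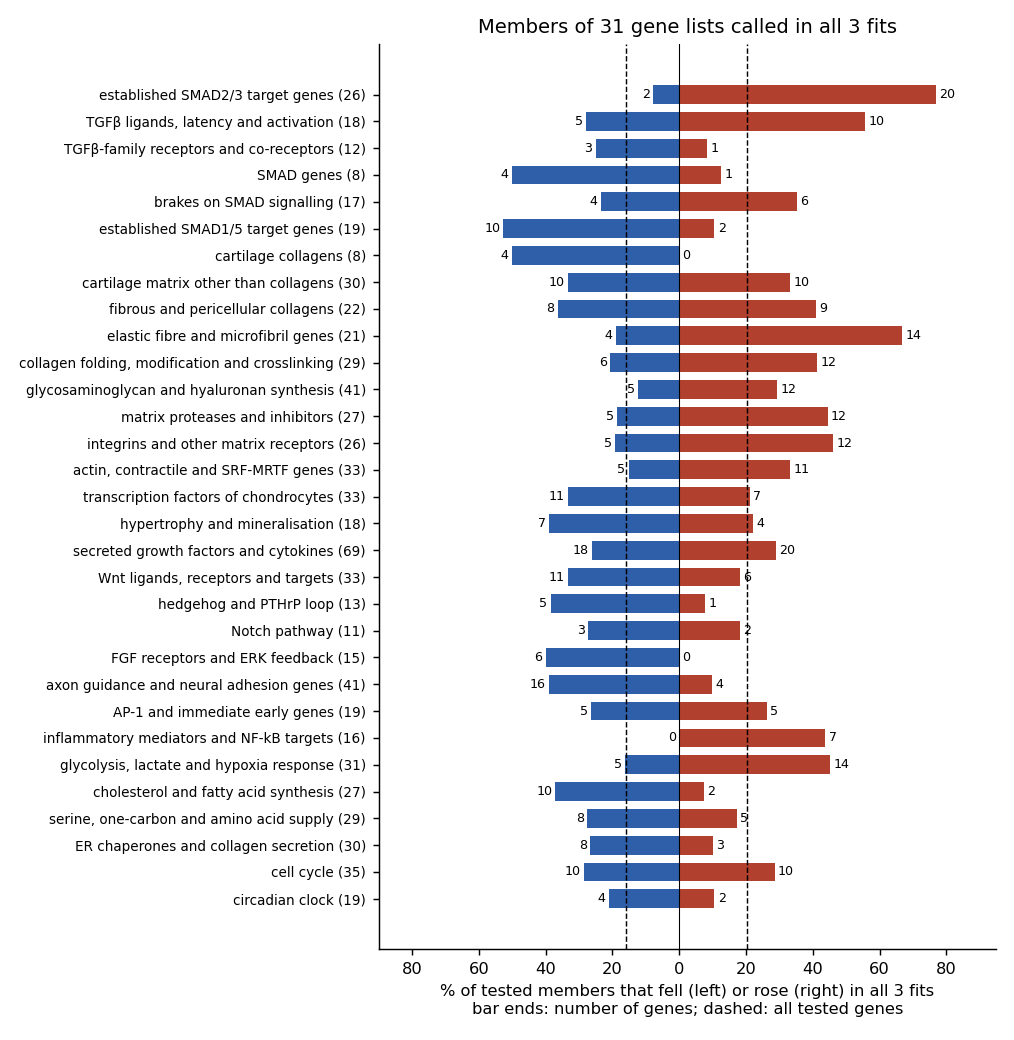
Share of the tested members of 31 gene lists (number tested in brackets) that rose (red, right) or fell (blue, left) in all 3 fits, with the number of genes at each bar's end; dashed lines mark the 20.4% and 16% of all tested genes. SMAD2/3 targets (20 of 26 up) and elastic fibre genes (14 of 21 up) reach farthest to the right, and SMAD1/5 targets (10 of 19 down) farthest to the left.

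The largest rises and falls were each ranked by the smaller absolute fold change with and without the gene-length offset. Ranked were named genes with a mean of at least 2 log2 CPM, called with the same sign in both of those fits. Their CPM ranges also had to be separate between the groups, so separation of the leading genes is no result. F13a1 (6739 nt), the A chain of the transglutaminase factor XIII, stood at 14.2 and 14.6 CPM with vehicle and 1172 and 1125 CPM with TGFβ1, a rise of 6.32 (SE 0.13, adjusted p = 9.93e-09). It lies on chromosome 13 from 36867178 to 37050244. Adamtsl2 (7993 nt), a secreted protein that binds fibrillin and latent TGFβ binding protein, rose from 1.2 and 0.597 to 134 and 154 CPM. Igf1 (9904 nt), insulin-like growth factor 1, rose from 0.934 and 1.55 to 108 and 71.2 CPM, with TGFβ1 replicate 1 the higher. Crabp2 (1322 nt), a carrier of retinoic acid, had 1 count over both vehicle libraries and 1486 with TGFβ1 (ratio 882, exact 95% interval for counting error 158 to 34800), and the adhesion receptor gene Adgra1 (5386 nt) 1 against 333 (ratio 198, 35.2 to 7830). Fbp2 (1469 nt), a fructose bisphosphatase, had 6 against 1336 counts. M1ap (2212 nt) rose by 7.26, the noncoding Snhg7os (3947 nt) by 6.39, Fxyd2 (4005 nt) by 8.20, R3hdml (1094 nt) by 8.50 and Cda (1035 nt) by 7.88; with the transcript offset Fxyd2, R3hdml and Cda rose by 5.36, 6.87 and 5.60.

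In the plain fit the 12 leading falls were smaller than the 12 leading rises. Padi2 (5013 nt), which converts arginine to citrulline in proteins, stood at 68.1 and 66.8 CPM with vehicle and at 3.45 and 3.96 CPM with TGFβ1 (−4.18, SE 0.17, adjusted p = 1.39e-08). Smpd3 (5232 nt), a sphingomyelinase needed for mineralising cartilage, fell from 258 and 269 to 14.4 and 16.5 CPM, and the paternally expressed Peg10 (6667 nt) from 132 and 137 to 5.14 and 7.39 CPM. Cxcl12 (8176 nt), a chemokine, fell from 9.21 and 7.88 to 0.294 and 0.838 CPM and Prkcb (7651 nt), a protein kinase C, from 7.74 and 6.92 to 0.22 and 0.686 CPM, with TGFβ1 replicate 1 the lower for both. Otog (10349 nt), Ptchd4 (6890 nt), Myoc (2074 nt), Nov (2869 nt), Adgrf5 (9010 nt) and Rspo3 (3090 nt) fell (log2 −4.20, −4.34, −4.46, −4.53, −4.41 and −3.71). The short Igkc (532 nt), an immunoglobulin constant region, went from 57 and 74 counts to 2 and 2. Its value was −5.67 in the plain fit and −8.25 with the gene-length offset.

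**Figure D3:**
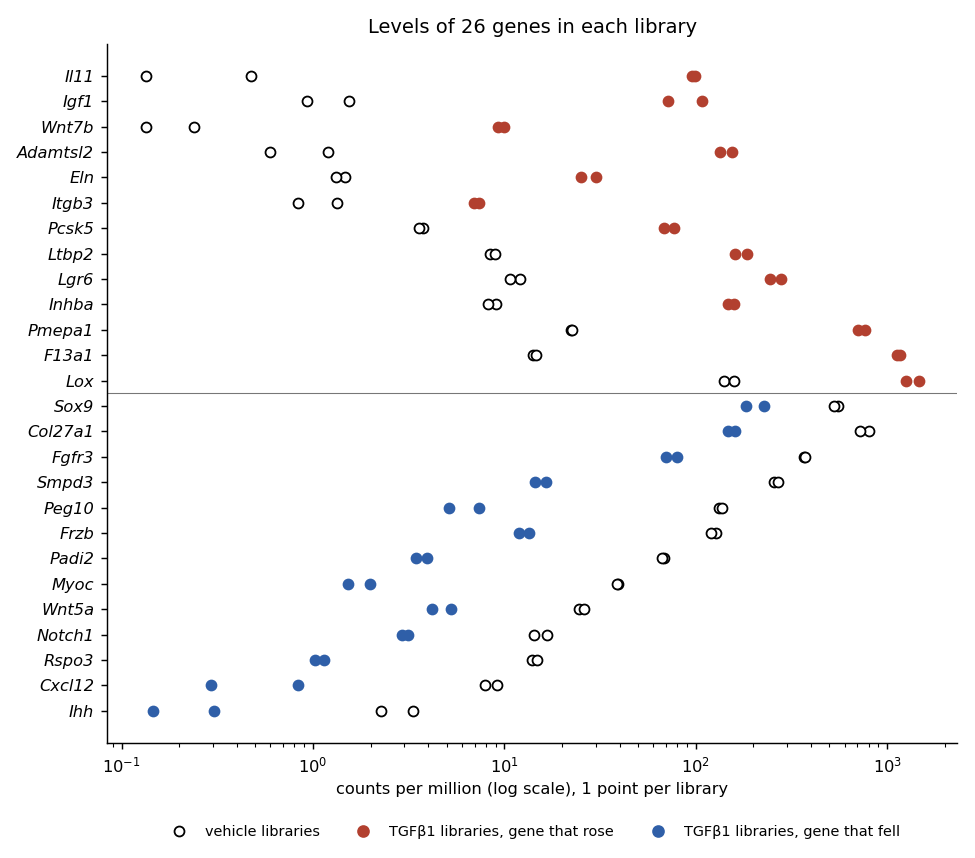
CPM on a log axis (x) for 26 genes named in the text (y), 1 point per library; open circles are the 2 vehicle libraries and filled circles the 2 TGFβ1 libraries. The groups are separate for each gene, as for 80.1% of all tested genes. For the genes taken from the leading rises and falls, separate groups were a condition of their choice. Examples are Pmepa1 (22.4 and 22.6 against 702 and 769) and Padi2 (68.1 and 66.8 against 3.45 and 3.96).

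Collagen genes did not share a direction. Of the 8 cartilage collagens 4 fell and the others were not called in all 3 fits. Col27a1 (13022 nt), a fibrillar collagen of cartilage, stood at 800 and 725 CPM with vehicle and 147 and 160 CPM with TGFβ1 (−2.32, SE 0.13, adjusted p = 1.71e-07). Col9a1 (5068 nt), which coats the collagen II fibril, fell from 2133 and 2100 to 598 and 656 CPM, while its partner chain Col9a2 (3095 nt) was not called, at 469 and 462 CPM with vehicle and 419 and 500 CPM with TGFβ1. Col11a1 (12744 nt) fell by 1.30 on the log2 scale, and by 0.87 and 0.77 with the gene-length and transcript offsets. Col9a3 (3853 nt) fell by 0.49, which did not pass in all 3 fits without vehicle replicate 1 (−0.52) or vehicle replicate 2 (−0.51). The hypertrophic Col10a1 (3130 nt), at −0.31, was called down with the gene-length offset alone (−0.43).

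Of 22 fibrous and pericellular collagens 9 rose and 8 fell. Col7a1 (10287 nt), the anchoring fibril collagen, rose from 1.74 and 0.955 to 25.6 and 24 CPM, Col5a3 (6809 nt) from 3.07 and 2.39 to 32.5 and 32.8 CPM and Col8a2 (4489 nt), a short-chain network collagen, from 7.74 and 7.64 to 83 and 101 CPM. The fibrillar Col1a1 (6563 nt), Col3a1 (9816 nt), Col5a1 (8490 nt) and Col5a2 (9591 nt) rose by 1.15, 1.35, 0.92 and 0.82; Col1a2 (12426 nt), the partner of Col1a1 in collagen I, was not called (−0.11). The 4 basement membrane chains of the list fell: Col4a1 (7464 nt) at −1.38, Col4a2 (6619 nt) at −1.01, Col4a5 (6718 nt) at −2.85 and Col4a6 (7973 nt) at −2.27. Col15a1 (6349 nt) and Col18a1 (7021 nt), which carry endostatin-type domains, fell (log2 −2.04 and −1.66), as did Col24a1 (7621 nt), at −2.42. Col6a1 (4380 nt), Col6a2 (8326 nt) and Col6a3 (11963 nt), the pericellular collagen VI chains, were not called in all 3 fits.

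**Figure D4:**
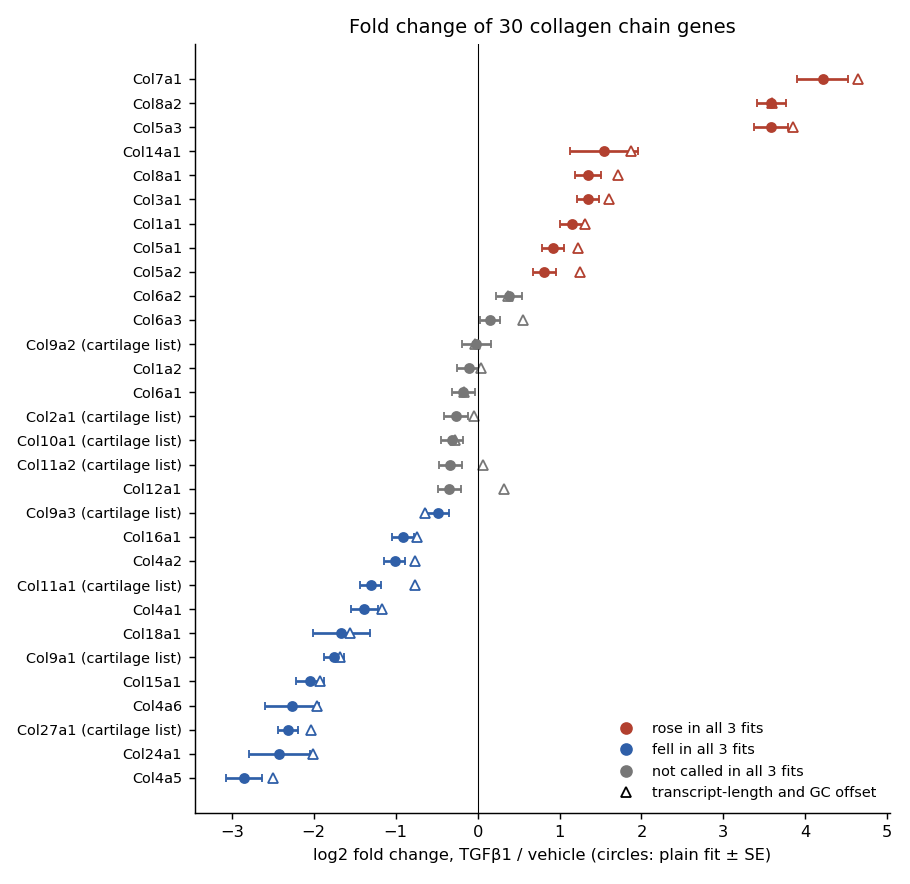
Log2 fold change (x) of 30 collagen chain genes (y), circles with SE for the plain fit and triangles for the transcript-length and GC offset. The 9 chains that rose are led by Col7a1 at 4.21, and the 12 that fell end with Col4a5 at −2.85.

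In the rest of the cartilage matrix 10 of 30 tested genes rose and 10 fell. Prg4 (4280 nt), lubricin, and the surface-zone gene Cilp (4252 nt) rose by 4.01 and 4.77, Cilp2 (4314 nt) by 1.96, the chondroadherin gene Chad (1680 nt) by 2.88 (2.13 with the gene-length offset) and Aspn (2354 nt), a leucine-rich proteoglycan that binds TGFβ, by 2.4. Other leucine-rich proteoglycans went down: Ogn (2566 nt) fell from 858 and 895 to 238 and 260 CPM and Omd (2249 nt) from 182 and 210 to 63.4 and 60.6 CPM. Dcn (5838 nt) and Prelp (3615 nt) were not called, at fold changes of −0.08 and 0.29. Fmod (3306 nt), at 0.33, was called up in the plain fit alone. The matrilins Matn1 (2001 nt), Matn3 (3014 nt) and Matn4 (5174 nt) fell (log2 −2.99, −1.53 and −1.52), while Matn2 (3583 nt) was not called in all 3 fits (−0.27). Hapln1 (5902 nt), which links aggrecan to hyaluronan, fell from 1122 and 1081 to 236 and 280 CPM and Acan (7469 nt), aggrecan, from 3573 and 3326 to 1788 and 1964 CPM. In the short Mgp (1187 nt), matrix Gla protein, the fits disagreed: the plain value was 2.96, with 1.46 and 0.22 under the offsets, and it was not called in all 3.

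Most elastic fibre and microfibril genes rose: 14 of 21 tested rose and 4 fell, with a median of 0.87 in the plain fit and 1.05 with the transcript offset. Eln (8098 nt), elastin, stood at 1.47 and 1.31 CPM with vehicle and 25 and 30 CPM with TGFβ1 (4.30, SE 0.30, adjusted p = 1.71e-07). Fbln2 (6370 nt), a fibulin, rose from 7.61 and 8.24 to 155 and 151 CPM, and the microfibril genes Mfap2 (1211 nt) and Mfap5 (3589 nt) rose by 3.53 and 2.29; with the gene-length and transcript offsets Mfap2 rose by 2.04 and 1.85. Fbn1 (12128 nt), fibrillin-1, rose by 0.76. Adamtsl2 and Ltbp2, above, belong to this list too. The 4 that fell were Thsd4 (13986 nt), which promotes fibrillin assembly, from 8.68 and 7.04 to 0.367 and 0.381 CPM, Efemp1 (2037 nt) from 32.2 and 38.7 to 4.18 and 5.33 CPM, Ltbp4 and Fbln1 (4368 nt), by 1.19. The call of Fbln1 was lost without TGFβ1 replicate 1 (−1.0), vehicle replicate 1 (−1.24) or vehicle replicate 2 (−1.19).

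Of 29 genes that fold, modify or cross-link collagen 12 rose and 6 fell. Among the 5 lysyl oxidases Lox (4810 nt) rose from 140 and 158 to 1252 and 1464 CPM (3.19, SE 0.14), and Loxl1 (3297 nt), Loxl2 (5405 nt) and Loxl3 (4603 nt) rose by 1.19, 1.09 and 1.21. Loxl4 (4213 nt) fell, from 973 and 1050 to 376 and 410 CPM. The lysyl hydroxylase gene Plod1 (6765 nt) rose by 1.15, and the prolyl hydroxylase subunits P4ha2 (6239 nt) and P4ha3 (3135 nt) by 1.5 and 1.77. The collagen chaperone gene Serpinh1 (2443 nt) fell from 3898 and 4346 to 2188 and 2518 CPM, and Pcolce (3823 nt), an enhancer of procollagen cleavage, fell by 0.95.

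Of 41 tested genes of glycosaminoglycan and hyaluronan synthesis 12 rose and 5 fell. The chondroitin sulfotransferase genes Chst3 (6497 nt) and Chst15 (6754 nt) rose by 2.21 and 1.83, and Has1 (2090 nt), a hyaluronan synthase, had 1 count over both vehicle libraries against 174 with TGFβ1 (ratio 103, exact 95% interval for counting error 18.3 to 4100). Csgalnact1 (5093 nt), which starts chondroitin chains, fell from 239 and 211 to 77.8 and 81.8 CPM, the sulfate transporter gene Slc26a2 (12370 nt) from 611 and 570 to 248 and 262 CPM, and the heparan sulfate enzyme genes Hs6st2 (7807 nt) and Extl1 (4333 nt) fell too (−1.90 and −1.21). With the transcript offset Slc26a2 was at −0.62, beside a plain −1.21. Has2 (4237 nt), at −0.44, was not called in all 3 fits.

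Matrix proteases and their inhibitors numbered 12 up and 5 down of 27 tested. Adamts16 (6836 nt) had 0 counts in both vehicle libraries and 135 over both TGFβ1 libraries, at least 21.4-fold higher by the exact 95% lower bound of the ratio, which covers counting error in both groups. The serine proteases Htra1 (2879 nt), Htra3 (4439 nt) and Htra4 (2404 nt) rose by 1.89, 1.94 and 3.57, and the membrane metalloprotease gene Mmp14 (5887 nt) and the gelatinase gene Mmp2 (3371 nt) by 1.35 and 0.86. Timp1 (888 nt) rose by 4.20, and by 2.10 with the transcript offset, while Timp2 (3896 nt) fell by 0.79. Reck (4779 nt), a membrane inhibitor of metalloproteases, fell from 221 and 233 to 46.7 and 52.4 CPM, and Adamts9 (15048 nt) and Adamts1 (5302 nt) fell (log2 −2.82 and −1.62). The collagenase gene Mmp13 (2673 nt), at −0.27, and the aggrecanase gene Adamts5 (8091 nt), at −0.89, were not called in all 3 fits. Adamts4 (4810 nt), the other aggrecanase gene, rose from 0.934 and 0.358 to 2.79 and 2.44 CPM (2.03), a call lost without TGFβ1 replicate 1 (1.93) or vehicle replicate 2 (1.47).

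Of 26 integrins and other matrix receptors 12 rose and 5 fell. The fibronectin receptor subunit Itga5 (4442 nt) rose by 1.01, the collagen receptor subunits Itga11 (5131 nt) and Itga2 (7133 nt) by 1.03 and 1.72, and the hyaluronan receptor gene Cd44 (6776 nt) by 1.11. Itga10 (5186 nt), the collagen II receptor subunit of chondrocytes, fell from 33.2 and 26.4 to 15.2 and 11.7 CPM, with 33.5% of its exon bases in another gene. Cd47 (5277 nt), which binds thrombospondin, fell by 0.87, and by more with the transcript offset (−1.61). The count of 5 was 3 without TGFβ1 replicate 3 and 3 without vehicle replicate 1. Among 33 genes of the actin and contractile apparatus 11 rose and 5 fell: Tpm1 (6485 nt), Actn1 (5533 nt) and Zyx (5390 nt) rose by 1.52, 1.07 and 0.77, and Mylk (10159 nt), myosin light chain kinase, fell by 2.56. Scx (1136 nt), the tendon transcription factor scleraxis, rose from 7.87 and 7.64 to 44 and 47 CPM, by 2.55 in the plain fit and by 0.96 and 1.02 with the gene-length and transcript offsets.

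Of 33 transcription factors of chondrocytes 11 fell and 7 rose. Runx1 (11827 nt) stood at 8.94 and 10.5 CPM with vehicle and 61.6 and 70 CPM with TGFβ1 (2.75, SE 0.16, adjusted p = 1.76e-07). Nfatc1 (7433 nt), a marker of articular progenitors, rose from 33.5 and 30.4 to 191 and 208 CPM, Foxo1 (8665 nt), which supports the superficial zone, from 42.6 and 39.3 to 125 and 133 CPM, and Erg (3466 nt), an articular ETS factor, from 9.74 and 8.6 to 17.2 and 17.8 CPM. Sox9 (4135 nt) fell from 555 and 527 to 184 and 227 CPM, and Sox8 (3118 nt) fell by 1.56. Sox5 (14376 nt) and Sox6 (14832 nt), its partners, had plain values of −0.60 and −0.65 and values of −0.05 and −0.05 with the transcript offset, and were not called in all 3 fits. Nfia (10891 nt), Nfib (14957 nt), Mef2c (15715 nt), Nkx3-2 (1718 nt) and Foxa2 (2370 nt) fell (log2 −1.57, −1.27, −1.21, −2.01 and −2.56). With the transcript offset Nfia and Nfib were at −0.91 and −0.62, and with the gene-length offset Nkx3-2 was at −2.70. Runx2 (8837 nt), at −0.69 and at −0.25 with the transcript offset, was not called in all 3 fits. Of 18 hypertrophy and mineralisation genes 7 fell and 4 rose. Among the falls were Smpd3, Panx3 (3434 nt), Ihh (3048 nt), Phospho1 (2029 nt), with 89.6% of its exon bases in another gene, and Alpl (4033 nt). The channel gene Panx3 was at −3.44 and the phosphatase Alpl at −1.42. The hedgehog ligand Ihh was at −3.56 (SE 0.81) on few counts, 25 and 19 with vehicle and 2 and 4 with TGFβ1. The rises included Ank (3608 nt) and Enpp1 (10257 nt), of pyrophosphate handling, and Gadd45b (1589 nt), at 4.44 and at 3.33 with the transcript offset.

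Secreted growth factors and cytokines were about evenly divided, with 20 up and 18 down of 69 tested. The cytokine gene Lif (4350 nt) rose from 0.667 and 0.239 to 8.52 and 8.69 CPM, and Hbegf (2373 nt), a ligand of the EGF receptor, from 39.4 and 39.9 to 430 and 425 CPM. Tnfrsf11b (2818 nt), osteoprotegerin, rose from 140 and 151 to 397 and 425 CPM. BMP-family ligands did not share a direction. Bmp7 (4019 nt) rose from 5.47 and 5.13 to 21.4 and 22.5 CPM, while Bmp2 (3555 nt), Bmp6 (3900 nt) and Gdf10 (2507 nt) fell (log2 −1.43, −3.17 and −1.61). Chrdl1 (6758 nt), a BMP antagonist, fell from 252 and 238 to 94.2 and 97.7 CPM. Fgf7 (3248 nt) fell by 2.56, and the enkephalin precursor gene Penk (1634 nt) by 1.17, with a value of −2.0 under the gene-length offset.

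Wnt genes moved both ways: of 33 tested 6 rose and 11 fell, and 7 fell without TGFβ1 replicate 1. Among ligands, Wnt7b (4413 nt) had 3 counts over both vehicle libraries and 256 with TGFβ1 (ratio 50.6, exact 95% interval for counting error 17.1 to 247), and Wnt9a (3329 nt) and Wnt4 (4194 nt) rose by 3.54 and 1.79. Wnt5a (7823 nt), a noncanonical ligand of growth cartilage, fell from 24.6 and 26 to 4.18 and 5.26 CPM. The R-spondin system was split, as the receptor gene Lgr6 (6851 nt) rose from 12.1 and 10.7 to 244 and 279 CPM (4.52, SE 0.17, adjusted p = 1.62e-08) and the ligand gene Rspo3 fell from 13.9 and 14.8 to 1.03 and 1.14 CPM; 13.1% of the exon bases of Rspo3 lie in another gene. Of the receptors, Fzd9 (2293 nt), Fzd4 (6720 nt) and Fzd7 (4532 nt) fell (log2 −2.72, −1.63 and −1.21). The secreted antagonist gene Frzb (3237 nt), a marker of articular cartilage, fell from 128 and 120 to 12 and 13.4 CPM. Lef1 (8788 nt), a nuclear effector and target (−0.09), was not called.

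Of 15 FGF receptors and feedback genes 6 fell. Fgfr3 (7158 nt), which restrains growth cartilage, fell from 367 and 371 to 69.8 and 80.3 CPM (−2.30, SE 0.18), Fgfr2 (10328 nt) from 202 and 236 to 76.3 and 91.4 CPM and Fgfr4 (3542 nt) from 4.67 and 6.45 to 0.22 and 0.686 CPM. Fgfr1 (9875 nt), at 116 and 130 CPM with vehicle and 124 and 134 CPM with TGFβ1, was not called. The ERK feedback inhibitors Dusp6 (3132 nt) and Spry2 (2085 nt) fell (log2 −1.60 and −1.31). In the plain fit 8 of the 15 were down. In the Notch list 2 of 11 rose and 3 fell, beside 20.4% and 16% of all tested genes, with Hes1 among the rises. Jag1 (5827 nt), a ligand, rose from 1.87 and 2.15 to 8.3 and 7.54 CPM. Notch1 (14232 nt), a receptor, fell from 16.7 and 14.3 to 2.94 and 3.12 CPM. Of 13 hedgehog and PTHrP genes 5 fell and 1 rose. The receptor and target gene Ptch1 (14185 nt) fell by 0.96, and by 0.49 and 0.48 with the gene-length and transcript offsets. Its call was lost with a replicate block. The count of 5 was 3 without vehicle replicate 2.

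Of 41 axon guidance and neural adhesion genes 16 fell and 4 rose, and the falls were 10 without TGFβ1 replicate 1 and 10 without vehicle replicate 1. The semaphorin receptor gene Plxnb1 (9592 nt) fell from 40 and 42.1 to 8.96 and 13.4 CPM (−1.88, SE 0.18), the repellent ligand genes Slit3 (6067 nt), Sema3c (7140 nt) and Sema3d (8595 nt) fell (−1.90, −1.24 and −1.26), and so did the netrin receptor genes Unc5b (6258 nt) and Unc5c (19135 nt) (−0.80 and −1.30). With the transcript offset Sema3d and Unc5c were at −0.62 and −0.65. The ephrin receptor gene Epha2 (4674 nt) fell by 1.20 while Ephb2 (12608 nt) rose by 0.78. The 4 rises were 2 without vehicle replicate 1 and 2 without vehicle replicate 2.

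Metabolic lists moved apart. Of 31 genes of glycolysis, lactate and the hypoxia response 14 rose and 5 fell. The lactate exporter gene Slc16a3 (5318 nt) rose from 33.5 and 37.4 to 242 and 232 CPM, and the hexokinase gene Hk2 (5969 nt) from 41.5 and 63.9 to 237 and 274 CPM (2.27, SE 0.49). Pkm (5001 nt), Eno1 (5379 nt) and Ldha (3310 nt), enzymes of the lower pathway, rose by 1.76, 1.75 and 0.97; genes such as these have processed pseudogenes, and how reads shared with those were counted is not given. Among the falls, Epas1 (5309 nt), which encodes HIF-2α, fell from 22.3 and 19.2 to 2.86 and 5.18 CPM, and the hypoxia-response genes Ndrg1 (6593 nt) and Ero1l (4413 nt) fell (log2 −1.57 and −1.21). Of 27 genes of cholesterol and fatty acid synthesis 10 fell and 2 rose, and 1 rose without TGFβ1 replicate 1 or without either vehicle library. The desaturase genes Fads1 (3456 nt), Fads2 (1508 nt) and Scd1 (4836 nt) fell (log2 −1.20, −1.25 and −1.27), with Fads2 at −2.20 under the gene-length offset.

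Of 30 ER chaperone and secretion genes 8 fell and 3 rose, with 4 falls without vehicle replicate 1 and 5 without vehicle replicate 2. Ern1 (8173 nt), the stress sensor IRE1, and the chaperone gene Dnajb9 (2549 nt) fell (log2 −1.47 and −1.23). Of 29 genes of serine, one-carbon and amino acid supply 8 fell and 5 rose, beside 16% and 20.4% of all tested genes. Without vehicle replicate 1 the counts were 4 and 2, and the rises were 3 without TGFβ1 replicate 1, 2 without TGFβ1 replicate 3 and 1 without vehicle replicate 2. The transporter gene Slc1a5 (4173 nt) fell by 0.82. Of 35 cell cycle genes 10 rose and 10 fell; the rises were 6 without TGFβ1 replicate 1 and 6 without vehicle replicate 1. The cyclin-dependent kinase inhibitors went opposite ways, Cdkn1a (2223 nt) rising from 238 and 227 to 1251 and 1065 CPM and Cdkn1c (2039 nt) falling from 95.4 and 108 to 17.9 and 14.9 CPM, with 30.7% of the Cdkn1c exon bases in another gene. Myc (2717 nt) fell from 42.7 and 39 to 13.3 and 12.2 CPM, by 1.68, with a value of −2.62 under the transcript offset. Of 19 AP-1 and immediate early genes 5 rose and 5 fell; Junb (2301 nt) rose by 2.63 and Atf3 (2154 nt) fell by 1.27. Of 16 inflammatory genes 7 rose, and 3 rose without vehicle replicate 2. The prostaglandin synthase genes Ptgs1 (3884 nt) and Ptgs2 (4580 nt) rose by 1.96 and 1.42, while Il1b, Il6 and Tnf did not pass the count filter. Of 19 clock genes 4 fell and 2 rose, beside 16% and 20.4% of all tested genes, and fewer fell without vehicle replicate 2.

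Families of short genes show how far the call depends on the length term. Of 83 cytosolic ribosomal protein genes 74 were up and 1 was down in the plain fit, with a median of 2.58; with the gene-length offset the median was 1.34, with the transcript offset 0.29, and 33 rose and 1 fell in all 3 fits. For 36 complex I subunit genes the medians were 3.71, 2.04 and 1.37, and 28 rose in all 3 fits. For 77 mitochondrial ribosomal protein genes they were 2.25, 1.45 and 0.95, with 50 up and 6 down in all 3 fits; without TGFβ1 replicate 3, 3 were down. In the order given, these families had median gene lengths of 1739, 1357.5 and 2255 nt, against 4146 nt over all tested genes. Not every short family rose. For 23 histone cluster genes (median 1020 nt) the medians were 0.02, −0.96 and −0.66, and 1 rose and 4 fell. For 17 mitochondrially encoded genes (median 519 nt) they were 0.63, −1.35 and −0.85, and 1 rose and 3 fell. Over all 1163 tested genes with a principal transcript of up to 1000 nt, 897 were up in the plain fit, and 370 rose and 58 fell in all 3. Rises thus still outnumbered falls among short transcripts under the rule of all 3 fits. For transcripts of 750 to 1000 nt the median was 1.2 with the gene-length offset and 0.47 with the transcript offset. For those of up to 750 nt the medians were 0.57 and 0.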

How the data were processed

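The deposited table holds whole-number counts per gene name for 7 libraries, made by the authors. The submitters' processing notes name cutadapt, STAR 2.4.2a, featureCounts of Subread, DESeq2 and the build mm10. No gene annotation, strand setting or rule for reads that fit several places is stated there. A length column lies beside the counts.

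Genes passing edgeR's filterByExpr were fitted over all 7 libraries with TMM scaling and the quasi-likelihood test (edgeR 4.0.16, R 4.3.3), contrasting TGFβ1 with vehicle, with p-values adjusted by Benjamini-Hochberg and called under 0.05. The same fit was repeated with a lowess offset per library (span 0.3) on the deposited gene length, and on transcript length and GC content, known for 98.07% of tested genes. Requiring all 3 fits was a rule added after family medians had been seen. Data were simulated with the length trend for this comparison (13367 genes). Passing the plain and gene-length fits recovered 83 of 100 genes changed by 1 log2 unit and 96 of 100 changed by 2. It called 0.0911% of unchanged genes, against 17.3% in the plain fit. The simulated trend was the gene-length offset estimated from these libraries, with the same spread for all genes, so its removal was built in. The simulation therefore cannot show the error rate in the real data. The transcript-length and GC fit, and so the rule of all 3 fits, was not simulated.

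Named genes were the 12 leading rises and falls, up to 8 members of each list by smallest p, a fixed set, and further list members chosen after their values were seen. The members, lists and tests were chosen with earlier results of these data known. Alternatives were DESeq2 1.42.0 and its size factors, TMM from genes of at least 2000 nt, other count filters, only the 4 libraries compared, a replicate block, and leaving out each library. Replicates of a group differed beyond sampling noise. Intervals cover counting error only, at 95% confidence.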

Additional observations from a re-analysis of the deposited data

How the results depend on the processing

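The counts of genes that rose and fell in all 3 fits (2721 and 2143) stayed within 1.5 times under every alternative run, and leaving out 1 library gave 2200 to 2850 and 1559 to 2347. The count of rises over 2-fold, 2070 in the plain fit, was 1167 among genes of at least 2000 nt, where fewer genes were tested, and 1258 with the transcript-length and GC offset. The falls over 2-fold, 515, were 235 with DESeq2; the cause was not tested. The difference between short and long genes, 3.05 on the log2 scale, was 1.47 with no filter on low counts, 0.14 with the gene-length offset and 0.07 with the transcript-length and GC offset, which are built to remove it; leaving out 1 library gave 2.83 to 3.13. TMM scaling from genes of at least 2000 nt moved the median of all genes from −0.02 to 0.1, and gave 4516 rises and 2782 falls in the plain fit. The vehicle and TGFβ1 libraries share replicate number 1 alone, so the numbers cannot be shown to pair them; with a replicate block the plain fit called 3496 up and 2590 down, and all 3 fits 2174 and 1483. With 2 libraries a group, a gene's call can rest on 1 library. Among markers of other cells, 3 short genes changed sign with the length terms, and none was called in all 3 fits. The osteoblast marker Bglap was at −2.37 with the gene-length offset (−2.16, −2.64, −2.13 and −2.27 without TGFβ1 replicates 1 and 3 and vehicle replicates 1 and 2) and −3.18 with the transcript-length and GC offset. The osteoclast marker Ctsk was at −0.55 (−0.35, −0.66, −0.54 and −0.49 in the same order) and −0.03. The leukocyte marker Cd68 was at −0.06 with the gene-length offset without TGFβ1 replicate 1.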
